A study of Mus musculus with 564 samples.

Results

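The region described here is the tumour necrosis factor and lymphotoxin locus of mouse chromosome 17, which holds the genes Tnf, Lta and Ltb. Of the 59190 cis-regulatory elements in the deposited H3K27ac table, 10 had their centre within 25 kb of a RefSeq start of a member gene in mm10, and all 10 were kept. H3K27ac, the acetylation of histone H3 at lysine 27, marks active promoters and enhancers, and it was measured by ChIP-seq, so every value below is acetylation of chromatin and not mRNA. The cells were bone marrow-derived macrophages (BMDMs) of wild type male C57/BL6 mice, pre-treated for 1 h either with the vehicle DMSO or with a clinical kinase inhibitor (CKI), of which there were 58. They were then left unstimulated (UT, labelled 4 h untreated and titled 0 h) or given lipopolysaccharide (LPS) or interleukin 4 (IL-4), each at 10 ng/mL, for 30 min, 1 h, 2 h or 4 h. DMSO had 2 replicates in each of 9 groups, 18 libraries in all, and the CKIs had 546 libraries, with 474 groups of CKI, stimulus and time at 1 library and 36 at 2.

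Tnf encodes an inflammatory cytokine that macrophages release after Toll-like receptor 4 has recognised LPS, and its promoter and neighbouring enhancers bind NF-kB, IRF and AP-1 family factors. Lta and Ltb encode lymphotoxin alpha and beta, related ligands that are best known from lymphocytes and from the development of lymph nodes. Macrophages exposed to LPS take on an inflammatory state, whereas IL-4 acts through STAT6 and drives an alternative state in which many inflammatory genes are restrained.

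The 3 genes lie side by side. On the forward strand, Ltb starts at position 35194507, and on the reverse strand Tnf starts at 35202007 and Lta at 35205351 and 35205578. The broadest element, chr17:35194727-35203578 in mm10, is 8852 bp wide, contains the Tnf start, begins 220 bp after the Ltb start and ends 1773 bp short of the nearer Lta start. It is called the Tnf-Ltb element below, and it covers most of Ltb, all of Tnf and the 3' end of Lta, so its value cannot be divided among the genes. Upstream of Tnf, on the side of Lta and Nfkbil1, lie the -7.34 kb element (chr17:35207469-35211224, intergenic, beyond Lta), the -13.0 kb element (chr17:35213988-35216046, intergenic), the -17.7 kb element (chr17:35217868-35221611, over the 3' end of Nfkbil1), the -21.2 kb element (chr17:35221619-35224845) and the -25.4 kb element (chr17:35226632-35228197), the last pair within introns of Nfkbil1. Distances are from the Tnf start to the centre of the element. Downstream, on the far side of Ltb, lie the element before Ltb (chr17:35192354-35193968, intergenic, 539 bp from the Ltb start), the Lst1 element (chr17:35185148-35191092), an element in the gap between Aif1 and Lst1 (chr17:35177901-35179539) and the Aif1 element (chr17:35171781-35175559). The nearest elements that the rule left out have their centres 28.8 kb and 29.0 kb from the closest member start.

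The RefSeq promoters of the 3 genes (GRCm38.p6, the mm10 assembly, 250 bases before to 50 after the start, written 5' to 3' on the strand of the gene) are shown because the members are defined by these starts. Capitals mark TATAAA in Tnf and Lta and a match to the NF-kB consensus in Ltb. TATAAA and the NF-kB consensus, a degenerate motif of 10 letters, were searched on both strands and do not overlap each other here.
Tnf, chr17:35201958-35202257, reverse strand: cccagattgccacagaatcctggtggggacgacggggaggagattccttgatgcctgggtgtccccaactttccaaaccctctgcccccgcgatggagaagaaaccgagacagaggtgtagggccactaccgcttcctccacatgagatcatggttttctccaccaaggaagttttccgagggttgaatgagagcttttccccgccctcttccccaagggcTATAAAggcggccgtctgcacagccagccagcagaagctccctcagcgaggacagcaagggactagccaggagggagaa
Lta, chr17:35205302-35205601, reverse strand: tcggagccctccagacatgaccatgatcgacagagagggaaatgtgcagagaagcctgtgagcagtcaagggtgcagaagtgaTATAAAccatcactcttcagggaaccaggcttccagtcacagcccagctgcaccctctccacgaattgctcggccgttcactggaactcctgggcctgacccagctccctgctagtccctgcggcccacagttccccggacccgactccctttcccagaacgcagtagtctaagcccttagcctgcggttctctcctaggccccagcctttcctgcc
Ltb, chr17:35194257-35194556, forward strand: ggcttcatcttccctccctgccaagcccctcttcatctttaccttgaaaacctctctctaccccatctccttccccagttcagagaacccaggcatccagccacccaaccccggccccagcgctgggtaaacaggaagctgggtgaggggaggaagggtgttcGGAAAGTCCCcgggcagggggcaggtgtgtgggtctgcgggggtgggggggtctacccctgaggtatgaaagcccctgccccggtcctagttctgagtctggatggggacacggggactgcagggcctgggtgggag
In Tnf the TATAAA begins at position -29 relative to the start, the usual place of a TATA box. In Lta it begins at -167, away from that place. The match in Ltb begins at -87. Of 32851 RefSeq promoters of this length, 13.6% held TATAAA and 5.80% held the NF-kB consensus, so these matches describe the windows and are not evidence of binding.

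The elements themselves held further matches to the NF-kB consensus. The Tnf-Ltb element held 5, the -17.7 kb element 6 at 4 places, the -13.0 kb element 2, and the -7.34 kb, the -25.4 kb and the Aif1 elements 1 each, while the other 4 elements held no match. Over all elements, 24.3% held a match. Wider elements hold more by length alone, and the fair comparison is with elements within 10% of the same width, a set that includes the element itself. Of 29 such elements, 6.90% held at least as many as the Tnf-Ltb element. The share was 7.48% for the -13.0 kb element and 0.262% of 1526 for the -17.7 kb element. For the elements with 1 match it was 48.1% at -7.34 kb, 48.0% at Aif1 and 18.8% at -25.4 kb. Among elements as wide as the 4 without a match, 19.1% to 67.7% held a match, the highest share being for the width of the Lst1 element. Of the pair of elements within Nfkbil1 introns, the element nearer to Tnf is among the 4 without a match, although its acetylation also rose under LPS. Windows of 50 bases on the forward strand, 1 per element, are printed for the elements that held a match and rose under LPS. For the Tnf-Ltb element the window is that of the site closest upstream of Tnf. The match is in capitals.
Tnf-Ltb element, at -0.507 kb from the Tnf start, chr17:35202490-35202539: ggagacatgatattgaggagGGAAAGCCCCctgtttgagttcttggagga
-7.34 kb element, chr17:35210380-35210429: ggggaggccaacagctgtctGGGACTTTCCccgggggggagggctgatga
-13.0 kb element, chr17:35214425-35214474: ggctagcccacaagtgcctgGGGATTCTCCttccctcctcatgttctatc
-17.7 kb element, chr17:35218734-35218783: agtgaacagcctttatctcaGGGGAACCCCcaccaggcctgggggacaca
-25.4 kb element, chr17:35227416-35227465: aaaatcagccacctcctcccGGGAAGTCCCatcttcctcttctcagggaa

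Values are read counts per element as the authors normalized and rounded them. Scaled totals ran from 4066894 to 12391409 per library and do not give the sequencing depth, which is unknown here. The ratio of the median value of the strongest 10% of elements to that of the weakest 10%, a measure of contrast, was 53 to 133.7 in DMSO libraries with a median of 75.1, and 3.34 to 67.2 in CKI libraries with a median of 17.6. The columns of the table list the CKIs in 6 consecutive runs, each with its own compounds, and the median contrast of a run was between 11.2 and 35.1. The macrophage genes Csf1r, Adgre1, Itgam, Cd68, Mertk and Spi1 had mean promoter values of 226 to 2082 in UT DMSO cells. Their elements were centred within 1 kb of the start or, for Csf1r, Adgre1 and Cd68, only overlapped it. Of the non-macrophage markers that were listed, only Flt3 (7.0) and Col1a1 (3.5) had an element by either rule. That of Col1a1 was centred within 1 kb without overlapping the start. The T cell, B cell and neutrophil markers had none. In a bulk library, fewer cells with acetylated chromatin and less acetylation per cell cannot be told apart. The labels do not say whether replicates are separate cultures, so p-values measure the spread between these samples, which may be technical.

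In unstimulated DMSO cells the locus was already acetylated, most strongly per kb at the Lst1 element. Per kb of element, the mean UT levels (n = 2) were 205 at the Lst1 element, 167 at the Aif1 element, 107 at the -17.7 kb element, 94.0 at the -7.34 kb element, 68.0 at the Tnf-Ltb element, 53.8 at the -21.2 kb element, 48.9 at the element before Ltb, 18.9 at the -13.0 kb element, 17.2 at the -25.4 kb element and 12.2 at the Aif1-Lst1 gap element. In this order, the replicates of the -21.2 kb element and the element before Ltb overlapped, as did those of the -13.0 kb and -25.4 kb elements. After 1 h of LPS the order per kb was led by the -17.7 kb element at 474 and the -7.34 kb element at 459.8, whose replicates overlapped, then the -21.2 kb element at 259.7 and the -13.0 kb element at 252, which also overlapped, and the Tnf-Ltb element at 134 and the Lst1 element at 134, which overlapped too. The strongest sites of the locus per length were Lst1 and Aif1 before LPS and lay beyond Lta after it.

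LPS raised H3K27ac over the Tnf-Ltb element and at all 5 elements upstream of Tnf, and lowered it at the Aif1 and Lst1 elements. A change was called where a moderated F-test of limma over the 4 times against UT had a Benjamini-Hochberg adjusted p under 0.01 and the log2 difference passed 1 at some time. By this rule 8 of 10 elements changed, 6 upward and 2 downward, where 53.5% of all elements tested changed, 29% upward and 24.6% downward. Differences are on the log2(value + 5) scale, which understates the change of low elements.

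The -17.7 kb element, over the 3' end of Nfkbil1, was the earliest to peak. Its 2 UT replicates were 385 and 413, and its LPS replicates were 2026 and 2171 at 30 min, 1689 and 1861 at 1 h, 1635 and 1539 at 2 h and 1262 and 1164 at 4 h. Every LPS library lay above both UT libraries, and the highest pair was the 30 min pair. The log2 difference from UT was 2.38 at 30 min, 2.14 at 1 h, 1.98 at 2 h and 1.59 at 4 h (SE 0.09; limma, adjusted p 3.69e-22).

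The -7.34 kb element, the closest one beyond Lta, rose to a plateau. Its replicates were 373 and 333 in UT cells, 1485 and 1766 at 30 min, 1752 and 1702 at 1 h, 1667 and 1620 at 2 h and 1362 and 1144 at 4 h of LPS. The range at 30 min took in the pairs at 1 h and 2 h, the 4 h pair lay below them, and all lay above UT. The log2 differences were 2.18, 2.28, 2.21 and 1.81 in time order (SE 0.10; limma, adjusted p 3.61e-21).

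The -13.0 kb element was weak in UT cells and had the largest log2 difference of the 10 elements. Its UT replicates were 47 and 31, and its LPS replicates were 465 and 489 at 30 min, 505 and 532 at 1 h, 380 and 410 at 2 h and 327 and 286 at 4 h. The lowest LPS library was still far above both UT libraries, and the pairs at 2 h and 4 h lay below those at 30 min and 1 h. The log2 differences were 3.48, 3.60, 3.21 and 2.84 (SE 0.16; limma, adjusted p 1.22e-20).

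The pair of elements within Nfkbil1 introns peaked at 1 h. The -21.2 kb element had 183 and 164 in UT cells, 614 and 528 at 30 min, 867 and 809 at 1 h, 780 and 743 at 2 h and 614 and 504 at 4 h. The -25.4 kb element was low throughout, with 26 and 28 in UT cells, 46 and 73 at 30 min, 122 and 127 at 1 h, 104 and 99 at 2 h and 70 and 64 at 4 h. Neither overlapped UT at any LPS time, and in both the 1 h pair was the highest. The peak log2 difference was 2.24 (SE 0.12) at the -21.2 kb element and 2.02 (SE 0.24) at the -25.4 kb element, with limma adjusted p of 1.27e-17 and 2.22e-08.

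The Tnf-Ltb element, which contains the Tnf promoter, rose too, with a smaller log2 difference at each time than any element beyond Lta, a gap between elements that was not tested. Its replicates were 602 and 601 in UT cells, 944 and 1091 at 30 min, 1253 and 1123 at 1 h, 1322 and 1519 at 2 h and 1227 and 1042 at 4 h of LPS. All LPS libraries lay above UT, and the highest pair was that of 2 h, where the mean was 1420.5 ± 139.3 (SD, n = 2). The log2 differences were 0.75, 0.97, 1.23 and 0.91 (SE 0.10; limma, adjusted p 3.91e-12), so the fold limit was passed at 2 h only, and after quantile normalization the peak difference was 0.93 and the element was no longer called. An element of this width averages acetylation over Ltb, Tnf and the end of Lta.

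On the other side of Ltb, acetylation went down and came back. The Aif1 element lies in Aif1, a gene for a calcium-binding protein of macrophages and microglia, and had 664 and 595 in UT cells, 206 and 204 at 30 min, 352 and 354 at 1 h, 626 and 654 at 2 h and 641 and 596 at 4 h of LPS. The Lst1 element lies over Lst1, a gene for a small leukocyte membrane protein, and had 1220 and 1220 in UT cells, 528 and 562 at 30 min, 800 and 788 at 1 h, 989 and 1041 at 2 h and 1304 and 1126 at 4 h. The Aif1 element was below UT without overlap at 30 min and 1 h and overlapped UT afterwards, and the Lst1 element was below UT until 2 h and overlapped it at 4 h. At 30 min the log2 difference was -1.59 (SE 0.12; limma, adjusted p 3.23e-15) at the Aif1 element and -1.16 (SE 0.09; limma, adjusted p 3.12e-13) at the Lst1 element.

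The remaining 2 elements did not pass. The element before Ltb had 75 and 83 in UT cells and 43 and 45 at 30 min, 62 and 56 at 1 h, 55 and 67 at 2 h and 57 and 53 at 4 h of LPS. All 8 LPS libraries were below both UT libraries, yet the adjusted p was 0.0603 (limma) with a largest difference of -0.78 (SE 0.24). The Aif1-Lst1 gap element stayed between 18 and 36 in UT and LPS cells, near the filter at a mean of 10. Its pairs at 1 h (29 and 26) and 2 h (26 and 26) of LPS lay above the UT pair of 22 and 18, those at 30 min and 4 h overlapped it, and the adjusted p was 0.69 (limma).

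**Figure D1:**
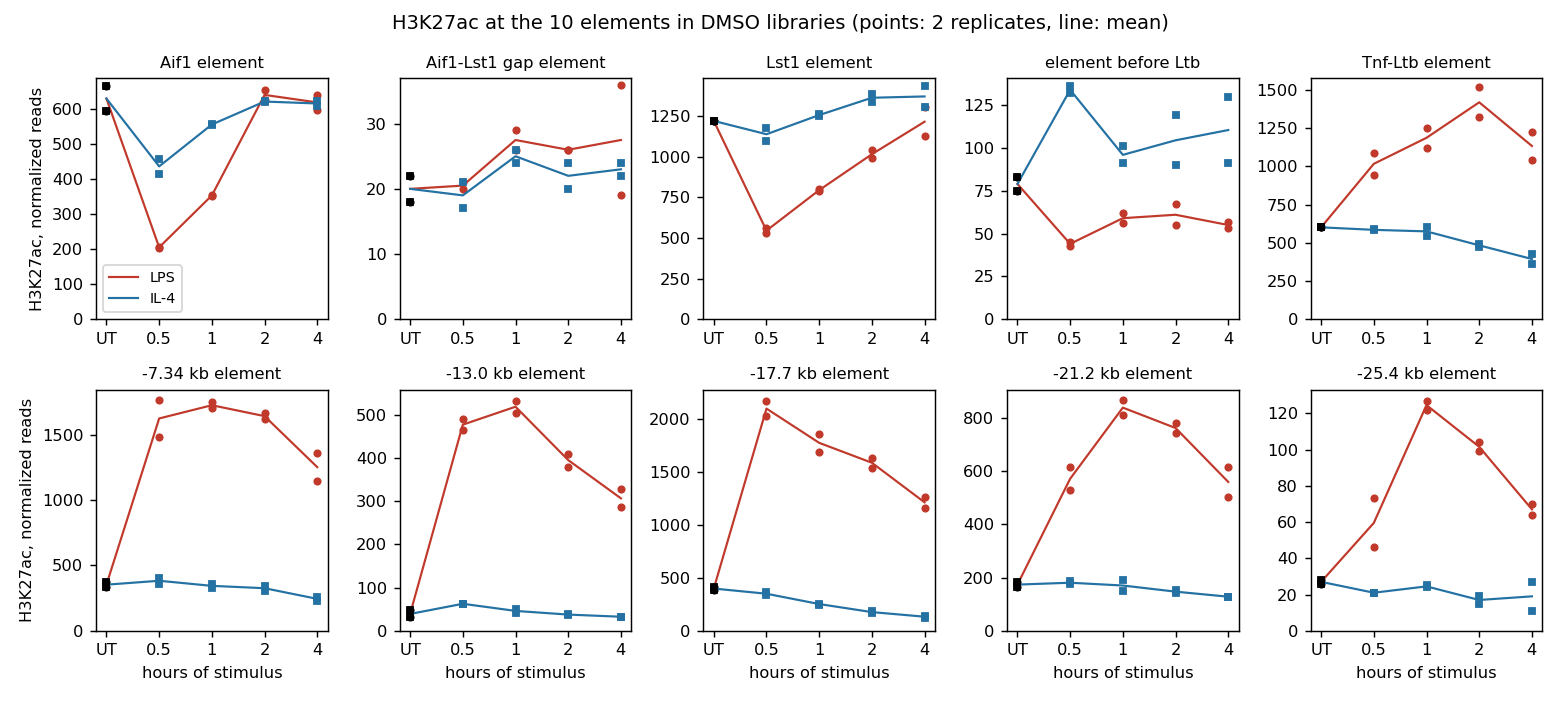
H3K27ac (normalized reads, linear axes from 0) against hours of stimulus in DMSO libraries, 1 panel for each of the 10 elements, with UT in black, LPS in red and IL-4 in blue; points are the 2 replicates and lines join their means. The 5 elements upstream of Tnf and the Tnf-Ltb element lie above UT at every LPS time, and the Aif1 and Lst1 elements dip to 205 and 545 at 30 min.

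**Figure D2:**
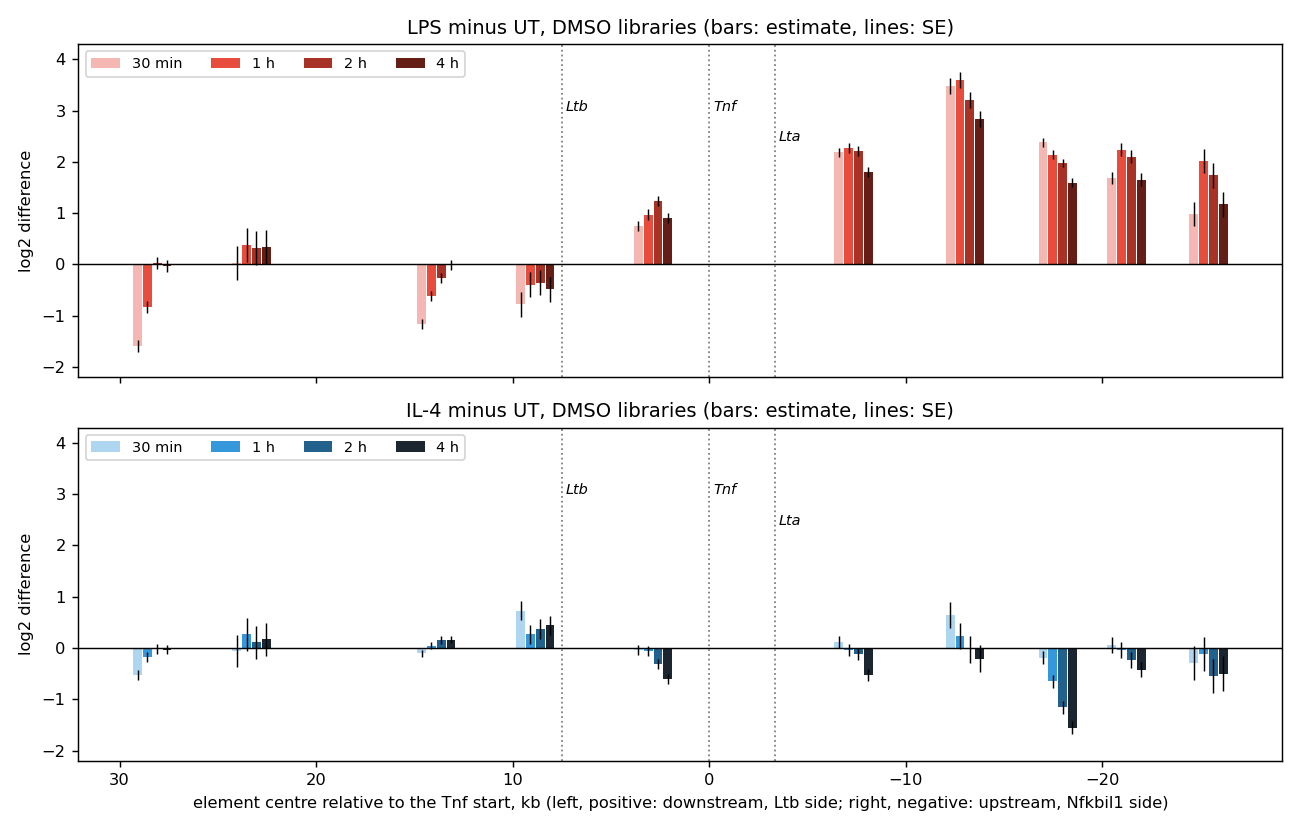
log2 difference from UT (bars, lines ± SE) for each element at its distance in kb from the Tnf start, with dotted lines at the Ltb, Tnf and Lta starts; LPS above, IL-4 below, 4 times per element. Under LPS bars point up on the Lta side, to 3.60 at -13.0 kb, and down at 30 min at the Aif1, Lst1 and before-Ltb elements, and under IL-4 the -17.7 kb element reaches -1.55 at 4 h.

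The timing was followed from each time to the next with limma on the same libraries, calling a step at an adjusted p under 0.01. In the step from UT to 30 min, 6 elements rose and 3 fell, the Aif1-Lst1 gap element being the exception, against 22.2% of all elements that rose and 19.2% that fell. From 30 min to 1 h, 4 elements rose, against 11% upward and 8.14% downward over all elements. These were the Aif1 element (0.77), the Lst1 element (0.54), the -21.2 kb element (0.55) and the -25.4 kb element (1.04).

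From 1 h to 2 h only the Aif1 element (0.85) and the Lst1 element (0.35) rose, where 9.31% of all elements rose and 9.7% fell. From 2 h to 4 h, 3 elements fell, where 3.31% of all fell and 6.17% rose: the -7.34 kb element (-0.40), the -17.7 kb element (-0.39) and the -21.2 kb element (-0.45). The Tnf-Ltb element had its call in the first step, and its later steps of 0.22, 0.26 and -0.32 had adjusted p of 0.0904, 0.0515 and 0.0205. Leaving out 1 library at a time gave 14 to 19 called steps in place of 18.

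From 30 min to 4 h as a whole, with the fold limit of 1, the Aif1 element rose by 1.57 and the Lst1 element by 1.15 under LPS, the only 2 calls of the 10 elements, where 13.9% of all elements were higher and 10.6% lower. The -17.7 kb element was lower by 4 h, with a difference of -0.79 that stayed under the limit, as did -0.63 at the -13.0 kb element and -0.37 at the -7.34 kb element. The Tnf-Ltb element differed by 0.16 between these times (limma, adjusted p 0.218). Under IL-4 the only call was the -17.7 kb element at -1.37, where 1.91% of all elements were higher and 7.07% lower.

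Over the 18 DMSO libraries, the values of the Tnf-Ltb element moved with those of the elements beyond Lta. Pearson's r on the log2 scale with the Tnf-Ltb element was 0.96 for the -7.34 kb and -21.2 kb elements, 0.95 for the -17.7 kb, 0.94 for the -13.0 kb and 0.92 for the -25.4 kb element, and it was -0.60 for the Lst1 element and -0.78 for the element before Ltb. Over the 241 LPS libraries of the CKIs, as deviations from the mean of their run and time, which leave differences of compound and library contrast, r was 0.74 for the -7.34 kb, 0.73 for the -17.7 kb, 0.59 for the -13.0 kb, 0.50 for the -21.2 kb and -0.01 for the -25.4 kb element, and 0.69 for the Lst1 element, 0.52 for the Aif1 element and 0.06 for the element before Ltb. Libraries of 9 groups share stimulus and scaling, so these values describe the course and have no test. Among promoter elements of other genes, the 5 most like the Tnf-Ltb element by the same measure were those of Helz2 (0.982), Nod2 (0.973), a receptor of bacterial peptidoglycan, Olfr433 (0.970), Ehd1 (0.969) and Zfp263 (0.968). The Nod2 element, for example, had a mean of 177 in UT cells, 661.5 after 2 h of LPS and 142 after 4 h of IL-4.

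IL-4 left most of the locus within the fold limit, with a decline at the -17.7 kb element. It was called at 1 of 10 elements, against 24.7% of all elements tested and 11% for a fall. The -17.7 kb element, at 385 and 413 in UT cells, had 335 and 365 at 30 min, 248 and 257 at 1 h, 167 and 186 at 2 h and 143 and 123 at 4 h of IL-4. Every IL-4 library was below both UT libraries, and each later pair lay below the earlier one without overlap. The log2 differences were -0.19, -0.65, -1.16 and -1.55 (SE 0.13; limma, adjusted p 2.57e-15).

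The Tnf-Ltb element under IL-4 had 589 and 581 at 30 min, 606 and 544 at 1 h, 472 and 495 at 2 h and 361 and 427 at 4 h, beside 602 and 601 in UT cells. It overlapped UT at 1 h only and was lowest at 4 h, where the log2 difference was -0.61 ± 0.10 (SE), with an adjusted p of 7.91e-07 (limma) that passed and a size under the fold limit of 1. The -7.34 kb element had 361 and 405 at 30 min and 227 and 262 at 4 h of IL-4, a difference of -0.52 at 4 h that also stayed under the limit (limma, adjusted p 7.18e-05).

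Differences of 0.5 or more in size at 30 min of IL-4 were seen at 3 other elements, none of which passed the call. The Aif1 element had 458 and 414, both below UT, and then 557 and 554 at 1 h, with a difference of -0.52 at 30 min. The element before Ltb had 132 and 136 at 30 min, both above its UT pair of 75 and 83, a difference of 0.73 (limma, adjusted p 0.0146). The -13.0 kb element had 62 and 63 at 30 min beside 47 and 31, a difference of 0.64 (limma, adjusted p 0.0396). The last 2 adjusted p did not reach 0.01, and the first passed it with a size under the fold limit. The Lst1 element, at 1220 and 1220 in UT cells, had 1178 and 1098 at 30 min, below UT, and 1263 and 1249 at 1 h, 1337 and 1388 at 2 h and 1436 and 1305 at 4 h, above it, with a largest difference of 0.17. With a fold limit of 0.5 in place of 1, 4 elements were called under IL-4: the Aif1, Tnf-Ltb, -7.34 kb and -17.7 kb elements. The share of all elements called at that limit is not given here, so this count does not set the locus apart.

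Set directly against each other, the stimuli differed at 9 of 10 elements in DMSO cells, all but the Aif1-Lst1 gap element, where 58.4% of all elements differed. Acetylation was higher under LPS at 6 and lower at 3, and the share over all elements was 29.2% in each direction. The LPS minus IL-4 difference at the Tnf-Ltb element was 0.79 at 30 min, 1.04 at 1 h, 1.54 at 2 h and 1.51 at 4 h. At the -17.7 kb element, which rose with LPS and fell with IL-4, it was 2.57, 2.79, 3.13 and 3.14. The gaps at 2 h and 4 h were nearly equal, and the gaps were not tested against each other.

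The other elements beyond Lta differed by 2.07 to 2.33 at -7.34 kb, by 2.84 to 3.36 at -13.0 kb, by 1.63 to 2.33 at -21.2 kb and by 1.28 to 2.28 at -25.4 kb over the 4 times. Lower under LPS were the Aif1 element (-1.07 at 30 min), the Lst1 element (-1.06) and the element before Ltb (-1.504). At the element before Ltb, the 30 min pairs were 43 and 45 with LPS and 132 and 136 with IL-4. The calls at the Aif1 and Lst1 elements stood just past the limit: both fell below it when libraries were rescaled by their median ratio (-0.92 and -0.91), and the Aif1 call also when values were quantile normalized (-0.998) or when IL-4 30 min replicate 1 was left out (-0.997).

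Promoter elements of genes that receive or restrain the TNF signal were compared with the locus, using a list of 24 genes of which 17 had an element centred within 1 kb of a start. Under LPS in DMSO cells 7 of the 17 rose and 2 fell (29% and 24.6% of all elements), and the median of the largest log2 differences was 0.91. Traf1, an adaptor of TNF receptors, went from a mean of 285 in UT cells to 1407 at 30 min (largest difference 2.38). Tnfaip3, which encodes the deubiquitinase A20, a feedback inhibitor of NF-kB, went from 211.5 to 953 (2.25).

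The other members that rose were Traf2 (1.93), Tnip1, a partner of A20 (1.68), Birc2 (1.33), Tnfaip8 (1.14) and Tnfrsf1b, the second TNF receptor (1.04). Map3k14, the kinase of the non-canonical NF-kB pathway, fell by 1.25 and Zfp36l2, an mRNA decay factor, fell by 2.36. With elements taken by overlap with a start, 23 of 24 genes had one, 10 rose and 3 fell, adding Birc3 (1.73), Nfkbia, the NF-kB inhibitor (1.57), and Adam17, the protease that sheds TNF (1.51), among those that rose and Zfp36l1 (-1.14) among those that fell. Under IL-4, Tnfaip3 was the 1 gene of the list called, at 1.15 after 30 min, where 24.7% of all elements were called. LPS against IL-4 gave 8 higher and 2 lower of the 17, with 29.2% of all elements in each direction.

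Genes beside the locus were listed as well. Of 6 neighbours within 50 kb, 4 had an element centred within 1 kb of a start, and under LPS only that of Lst1, which is the Lst1 element above, was called. The largest differences of the others were 0.38 at Prrc2a, -0.28 at Atp6v1g2 and -0.41 at Ddx39b, with limma adjusted p of 0.0498, 0.0631 and 0.0194. Nfkbil1, whose introns hold 2 of the elements that rose, shares its start element with Atp6v1g2.

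The CKIs served as a further set of time courses, since each CKI has its own UT, LPS and IL-4 libraries. Over the panel, limma with compound as a term called 7 of 10 elements under LPS (28.9% of all elements, 15.4% higher and 13.5% lower), with 5 higher and 2 lower. The panel fits treated the libraries of a run as independent, so their SE and p may understate the spread of the response between runs. The 5 elements beyond Lta rose again, the peak difference being 2.10 at -13.0 kb, 1.55 at -17.7 kb, 1.502 at -7.34 kb, 1.47 at -25.4 kb and 1.38 at -21.2 kb. The Aif1 and Lst1 elements fell by 1.32 and 1.09 at 30 min.

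The Tnf-Ltb element differed from UT in the panel by 0.31, 0.42, 0.63 and 0.56 in time order (SE 0.04; limma, adjusted p 7.26e-40), which is under the fold limit. Its UT level was higher in the CKIs, with a median of 798 and a range of 424 to 937 over 58 CKIs, than in DMSO, where the replicates were 602 and 601, and its median LPS level was 968.75 at 30 min, 1051 at 1 h, 1152 at 2 h and 1156 at 4 h. Within its own CKI it was higher with LPS than in UT in 49 of 58 CKIs at 30 min, 50 of 57 at 1 h, 55 of 55 at 2 h and 53 of 55 at 4 h. The difference at 30 min ran from -0.43 with PH797804 to 0.84 with Vandetanib.

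At the -7.34 kb element LPS was above UT in 58 of 58, 57 of 57, 55 of 55 and 55 of 55 CKIs in time order, and at the -17.7 kb element in 58 of 58, 57 of 57, 54 of 55 and 54 of 55. The exceptions at the -17.7 kb element were Lenvatinib at 2 h (-0.08) and PH797804 at 4 h (-0.07). By run, the median of the LPS minus UT difference at 2 h at the Tnf-Ltb element was 0.29 to 1.07, and at 30 min at the -17.7 kb element 1.30 to 1.88, so the direction was shared by all 6 runs and the size was not.

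IL-4 again lowered the -17.7 kb element in the CKI panel, which was 1 call of 10 where 8.84% of all elements were called, 5.33% higher and 3.5% lower. The panel differences were -0.44, -0.77, -1.20 and -1.27 (limma, adjusted p 5.01e-75). Within its own CKI, IL-4 was below UT there in 53 of 58 CKIs at 30 min, 55 of 58 at 1 h, 55 of 56 at 2 h and 55 of 55 at 4 h, with medians of -0.41, -0.71, -1.25 and -1.40. The Tnf-Ltb element was lower with IL-4 in 53 of 58, 53 of 58, 55 of 56 and 52 of 55 CKIs, with a median of -0.57 at 4 h, and its panel difference stayed under the fold limit.

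LPS against IL-4 in the panel gave 8 of 10 elements (30.1% of all), 6 higher with LPS and 2 lower (15.2% and 14.9% of all), including the Tnf-Ltb element at 0.58, 0.78, 1.12 and 1.08 and the -17.7 kb element at 1.99, 2.31, 2.45 and 2.36. The Tnf-Ltb element was higher with LPS than with IL-4 of the same CKI in 54 of 58, 56 of 57, 55 of 55 and 52 of 52 CKIs. At 2 h the lowest difference was 0.35 with Neratinib and the highest 1.96 with Selumetinib.

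**Figure D3:**
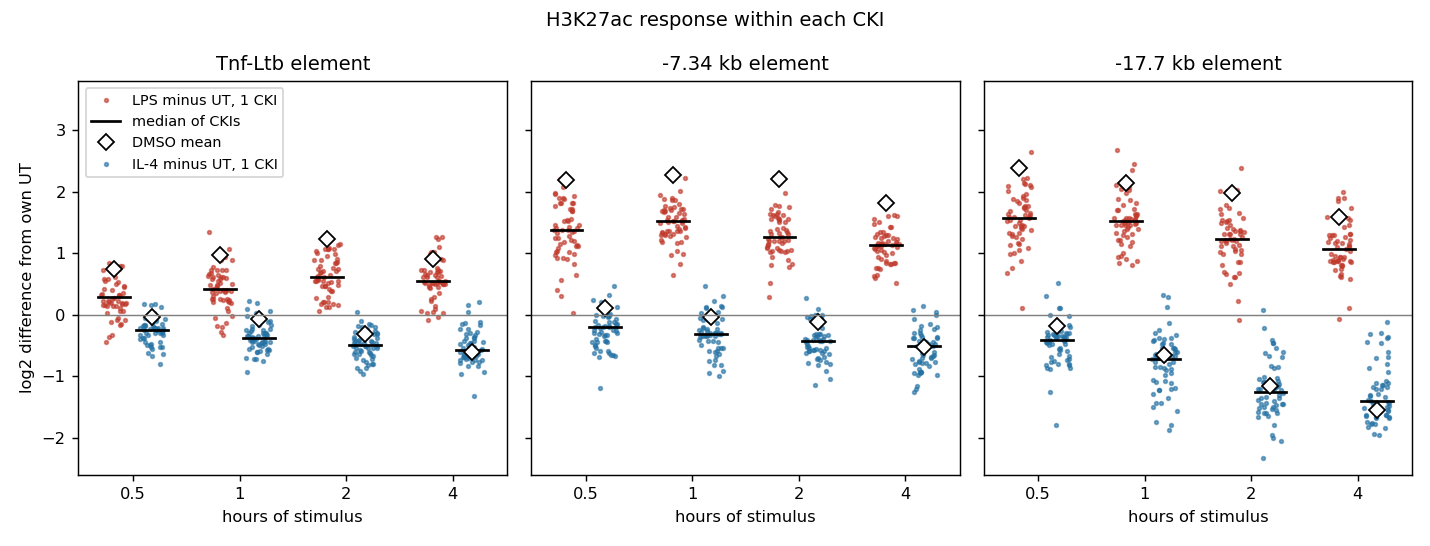
log2 difference of LPS (red) or IL-4 (blue) from the UT library of the same CKI against hours of stimulus at the Tnf-Ltb, -7.34 kb and -17.7 kb elements; each point is 1 CKI, the bar is the median and the diamond the DMSO mean. The LPS medians at 30 min are 0.30, 1.37 and 1.58, below the DMSO diamonds, and the IL-4 medians at -17.7 kb fall to -1.40 at 4 h.

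Each CKI was then compared with DMSO, averaged over times. Under LPS, 116 of 580 pairs of CKI and element were called by limma at an adjusted p under 0.05 within the CKI and a log2 difference over 0.5, 57 higher and 59 lower, where 32.3% of all pairs over all elements were higher and 4.04% lower. The -7.34 kb element was lower in 29 of 58 CKIs, the -17.7 kb element in 11, the -21.2 kb element in 8, the Lst1 element in 7, and the Aif1 and -13.0 kb elements in 2 each. Higher were the weak elements, the Aif1-Lst1 gap element in 40 CKIs, the element before Ltb in 12 and the -25.4 kb element in 5. At the -7.34 kb element all 58 differences were below 0, with a median of -0.50, and at the -21.2 kb element all 58 as well, with a median of -0.36. The share of calls followed the level of the element. The strongest of 5 level groups by DMSO mean holds the Aif1, Lst1 and Tnf-Ltb elements and all upstream elements but that at -25.4 kb. In that group 15.6% of all pairs were lower and 0.959% higher, with a median difference of -0.19. The 59 lower calls were all in these 7 elements, and their total is near that share. They were spread unevenly, from 29 of 58 CKIs at the -7.34 kb element to 0 at the Tnf-Ltb element.

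The Tnf-Ltb element was called in 0 of 58 CKIs against DMSO by limma, with 24 at an unadjusted p under 0.05 and differences from -0.49 to 0.43 around a median of -0.03. The CKI libraries had lower contrast than the DMSO libraries, the median of all elements was 0.39 above DMSO, and DMSO lies outside every run, so compound and run cannot be told apart in this comparison. After quantile normalization, which removes the shift, 8 pairs of the locus were called, where 2.63% of all pairs were lower and 1.98% higher.

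Under IL-4, 142 pairs were called against DMSO, 138 higher and 4 lower (36.2% and 3.03% over all elements). Most were at elements weak under IL-4, higher at the -13.0 kb element in 50 CKIs, the Aif1-Lst1 gap element in 47 and the -25.4 kb element in 33. The element before Ltb was higher in 4 and the -17.7 kb and -21.2 kb elements in 2 each, and the Lst1 element was lower in 3 and the Aif1 element in 1. The Tnf-Ltb element was called in 0 CKIs by limma, with 36 at an unadjusted p under 0.05 and a range of -0.34 to 0.49. The median of all elements was 0.41 above DMSO. After quantile normalization 22 pairs of the locus were called, where 3.76% of all pairs were lower and 2.77% higher.

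To compare like with like in column order, each CKI was also set against the other CKIs of its run at matched times. Under LPS, 10 of 580 pairs were called, 9 lower and 1 higher, where 0.539% of all pairs were lower and 1.03% higher. PH797804, an inhibitor of p38 MAP kinase, a stress kinase downstream of Toll-like receptors, accounted for 8 of them. The others were the Aif1 element with BGT226 (-0.61 ± 0.16; adjusted p 0.0103) and with Omipalisib (-0.52 ± 0.16; adjusted p 0.0308), both inhibitors of PI3K and mTOR, from limma with SE. Over all elements BGT226 had 1.54% lower and 2.06% higher, and Omipalisib 2.03% lower and 5.36% higher.

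With PH797804 the Tnf-Ltb element had 565, 901, 882 and 798 at 30 min, 1 h, 2 h and 4 h of LPS and 765 in UT cells. The other 9 CKIs of its run had medians of 1437, 1398, 1797 and 1390 at these times and ranges of 757 to 1512, 752 to 1541, 1397 to 1891 and 983 to 1534. PH797804 lay below the whole range at 30 min, 2 h and 4 h and within it at 1 h. The difference was -0.84 ± 0.13 (SE; limma, adjusted p 4.16e-08). With all other CKIs as the reference it was -0.45 (limma, adjusted p 0.00577), under the limit, and the calls at the Aif1 and -21.2 kb elements given next were lost as well (-0.48 and -0.499).

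The same compound was lower at the -17.7 kb element (-0.95 ± 0.14; adjusted p 2.42e-08), at the -13.0 kb element (-0.92 ± 0.16), at the -7.34 kb element (-0.81 ± 0.14; adjusted p 1.18e-06), at the Aif1 and Lst1 elements (-0.72 each) and at the -21.2 kb element (-0.54), and higher at the -25.4 kb element (0.69), all by limma with SE. Its values at the -17.7 kb element were 565, 1214, 798 and 497 in time order beside run medians of 1936, 1764, 1444 and 1093. Over the whole table, with PH797804, 15.5% of all 59168 elements tested were called lower and 29.3% higher. The contrast of its 4 LPS libraries was 3.37 to 10.3 with a median of 5.84, against 5.4 to 50.25 with a median of 35.0 in the 39 LPS libraries of the rest of its run, ranges that overlap, and its 30 min LPS library held 12451 elements at 0, where the median CKI library held 114.

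Without that library the Tnf-Ltb difference was -0.71 (limma, adjusted p 9.63e-05). The -7.34 kb and -21.2 kb differences were -0.46 and -0.31 and were no longer called. The -13.0 kb difference was -0.53 and still called. In all, 9 pairs of the locus were called, where 0.452% of all pairs were lower and 1.3% higher. After quantile normalization the PH797804 difference was -0.04 at the Tnf-Ltb element (limma, adjusted p 0.756), -0.03 at -7.34 kb and -0.16 at -17.7 kb, and -0.57 at -13.0 kb, which was still called. The part of library contrast in these differences was not tested. Under IL-4 the Tnf-Ltb values with PH797804 were 840, 653, 676 and 558, beside run medians of 720, 614, 590 and 605, and no call was made there.

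**Figure D4:**
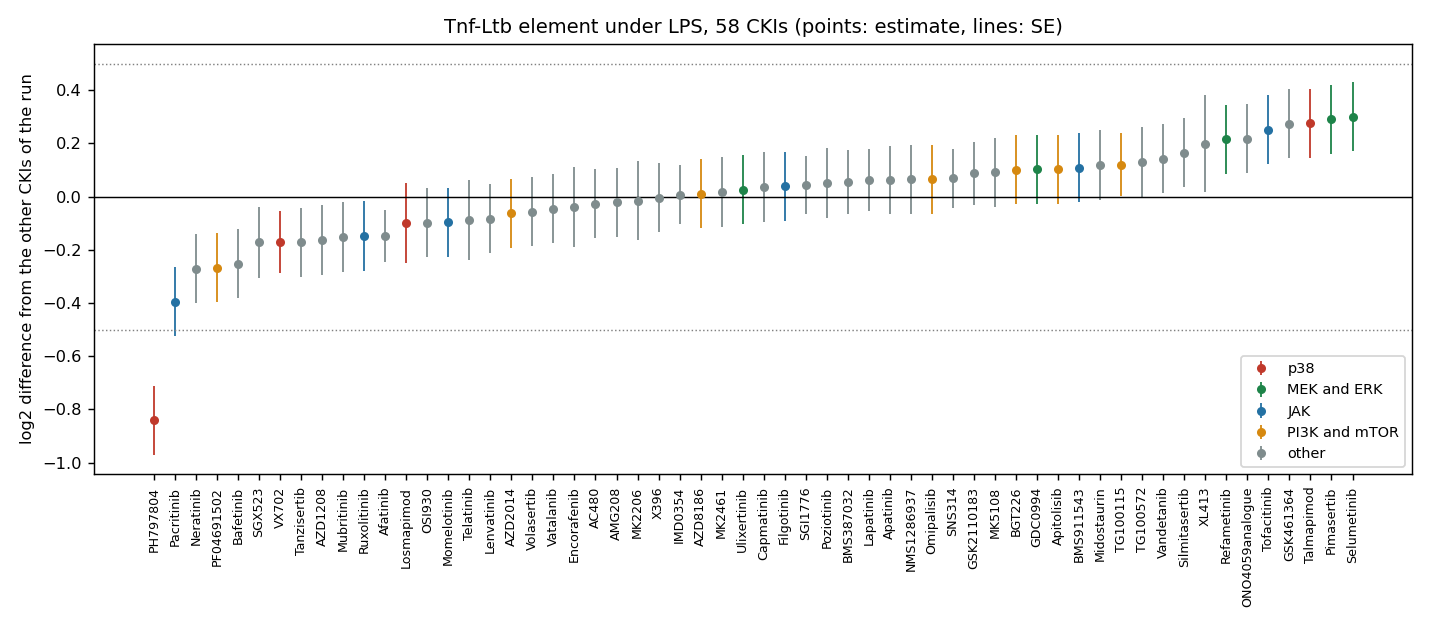
log2 difference (point, line ± SE) of the Tnf-Ltb element under LPS from the other CKIs of the run for each of 58 CKIs, ordered by value and coloured by target family, with dotted lines at the limits of -0.5 and 0.5. PH797804 at -0.84 is the only point beyond a limit, and the others lie between -0.39 and 0.30.

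Next in order below 0 at the Tnf-Ltb element under LPS came Pacritinib (-0.39; limma, adjusted p 0.0212, under the fold limit), Neratinib (-0.27), PF04691502 (-0.27) and Bafetinib (-0.25). The highest were Selumetinib (0.30) and Pimasertib (0.29), which inhibit MEK, then Talmapimod (0.27), a p38 inhibitor, GSK461364 (0.27) and Tofacitinib (0.25), a JAK inhibitor. Selumetinib, GSK461364 and Tofacitinib are in the run of PH797804 and Pacritinib, whose low values enter their reference. Of 58 CKIs, 8 had an unadjusted p under 0.05 and 25 had a difference below 0.

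Compounds with a shared target were compared as families at the Tnf-Ltb element under LPS, with an exact two-sided permutation test over CKIs and Benjamini-Hochberg adjustment over the 4 families. The 5 inhibitors of MEK and ERK were all above 0 and averaged 0.20 above the other CKIs (p 0.0288, adjusted 0.0657). The 4 p38 inhibitors averaged 0.22 below the other CKIs, with 3 of 4 below 0 (difference -0.22, exact permutation p 0.0328, adjusted 0.0657). The 6 JAK inhibitors and 7 PI3K and mTOR inhibitors differed by -0.05 and 0.01 (exact permutation p 0.557 and 0.881).

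No family passed the adjusted threshold of 0.05, while 2 had an unadjusted p under 0.05. The p38 difference rested on PH797804: without it the difference was -0.01 (exact permutation, adjusted p 0.881), and without Talmapimod, the member above 0, it was -0.39 (exact permutation, adjusted p 0.0178). After quantile normalization the differences were -0.00 for p38 and 0.02 for MEK and ERK. CKIs of a run share their reference, so the values of a family are not fully independent.

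Under IL-4, 6 of 580 pairs were called against the run, where 0.473% of all pairs were lower and 1.03% higher. They were BGT226 at the Aif1 element (-0.77), PH797804 at the Lst1 element (-0.64) and at the -25.4 kb element (0.78), BMS911543 at the -7.34 kb element (-0.56), Lenvatinib at the -17.7 kb element (0.53) and Omipalisib at the -21.2 kb element (-0.55). Over all elements PH797804 had 2.04% lower and 38.2% higher under IL-4, BGT226 6.21% lower and 3.99% higher, Omipalisib 3.46% lower and 1.35% higher, Lenvatinib 2.38% lower and 6.77% higher, and BMS911543 0.788% lower and 0.0896% higher. With all other CKIs as the reference, 4 of these 6 calls were lost: PH797804 at the Lst1 element (-0.44) and at the -25.4 kb element (0.31), Lenvatinib (0.30) and Omipalisib (-0.38). At the Tnf-Ltb element 0 of 58 were called by limma, with 11 at an unadjusted p under 0.05 and a range of -0.32 with Apatinib to 0.26 with Lenvatinib.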

How the data were processed

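H3K27ac ChIP-seq was measured in 564 libraries. According to the methods of the study, the authors trimmed single-end reads to 51 bases, mapped them to mm10 with ShortStack, counted them in elements and scaled every library with a factor derived from invariant peaks; the labels' processing notes name Bowtie and SAMtools. The deposited values are these normalized counts rounded to whole numbers, given the unit score here, so no count model was applied. Placement of reads that match several positions and the choice of invariant peaks can both shift values. All 564 columns were matched to samples by title.

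Elements with a mean of at least 10 in a comparison were tested on log2(value + 5) with limma 3.58.1 in R 4.3.3 (moderated variances with a mean trend), with Benjamini-Hochberg adjustment over all elements tested. DMSO time courses and the CKI panel used a moderated F-test over the 4 times (adjusted p under 0.01 and log2 difference over 1), steps used adjusted p under 0.01, and each CKI was tested as 1 coefficient over times against DMSO, or against the other CKIs of its run (adjusted p under 0.05 and log2 difference over 0.5). Most CKI groups hold 1 library, and the error was pooled over compounds. The panel and DMSO fits used only their own libraries. Target families were tested by exact permutation in Python 3.11.15. The scripts were tested on simulated data.

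The members, gene lists and families were chosen with earlier results of these data known. Named elements were all 10, and named CKIs were those called and, against the run under LPS, the 5 lowest and 5 highest at the Tnf-Ltb element. The rule named up to 6 called genes of the pathway list per comparison, and under LPS all called ones are given, a choice made after their values were seen. Alternatives were quantile normalization, rescaling by the median ratio, other pseudocounts, filters and fold limits, other reference sets, left-out libraries and a replicate block. Intervals of counting error were not given, since depth is unknown.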

Additional observations from a re-analysis of the deposited data

Results flagged for a closer look

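At 3 elements the difference from UT was itself different at 30 min and at 4 h of the same stimulus, by a test of 4 h against 30 min. Under LPS in DMSO cells the Aif1 element rose by 1.57 on the log2 scale from 30 min to 4 h (SE 0.10; limma, adjusted p 1.85e-16), and the Lst1 element by 1.15 (SE 0.08; limma, adjusted p 2.83e-15). Over all elements, 13.9% were called higher and 10.6% lower in this comparison. The 4 h replicates of both elements overlapped their UT replicates, and the 30 min replicates were the lowest of each course. Under IL-4 the -17.7 kb element differed by -1.37 from 30 min to 4 h (SE 0.10; limma, adjusted p 1.22e-13), where 7.07% of all elements were lower and 1.91% higher. Under LPS the same element differed by -0.79 over the same interval (adjusted p 2.44e-08), which is under the fold limit.

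Sample groups hold 1 or 2 libraries, too few to look for a sample that stands apart within one. Among the 4 target families, no CKI's difference at the Tnf-Ltb element under LPS stood apart from the rest of its family by Dixon's criterion. With 4 to 7 CKIs in a family this criterion finds only very wide gaps, and the p38 difference still rested on PH797804, as given above.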

How the results depend on the processing

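In DMSO cells, 8 elements were called for LPS in every fit that left out 1 library, 8 to 9 for LPS against IL-4, 1 for IL-4 and 14 to 19 steps. The CKI panel was refitted without the libraries whose titles end in b and without each run in turn. For LPS it was also refitted without the PH797804 30 min library. Each of these fits gave 7 calls for LPS, 8 for LPS against IL-4 and 1 for IL-4. With a fold limit of 0.5, IL-4 called 4 elements in DMSO cells and 6 in the panel. The shares of all elements at that limit are not given here, so these counts do not set the locus apart. Comparisons with DMSO moved most. Under LPS, 116 called pairs became 8 after quantile normalization, where 2.63% of all pairs over all elements were lower and 1.98% higher. They became 184 after rescaling by the median ratio (8.18% lower and 25.8% higher over all elements). Against the mean of all 59 compounds, 7 were called (1.52% lower and 1.26% higher). Under IL-4, 142 pairs became 22 after quantile normalization (3.76% lower and 2.77% higher over all elements). Against that mean, 15 were called (1.28% lower and 2.7% higher). Left-out libraries gave 89 to 117 pairs under LPS (3.24% to 4.02% lower and 22.5% to 33.3% higher over all elements). Under IL-4 they gave 122 to 124 (2.49% to 2.72% lower and 29.4% to 30.1% higher). Against the run, 10 pairs under LPS became 4 after quantile normalization (0.475% lower and 0.299% higher over all elements). Against all other CKIs there were 16 (1.41% lower and 0.906% higher), with 3 of the PH797804 calls lost. When libraries were left out there were 9 to 10 (0.452% to 0.595% lower and 1.25% to 1.3% higher). The 6 pairs under IL-4 became 11 against all other CKIs (0.973% lower and 2.15% higher over all elements), with 4 of the 6 lost. Quantile normalization reversed the PH797804 differences at the Lst1 element (0.011) and the -21.2 kb element (0.024) under LPS and at the -25.4 kb element (-0.094) under IL-4. With all other CKIs as the reference, 1 family passed (MEK and ERK, 0.35, adjusted p 0.0331, exact permutation), and leaving out 1 compound gave 0 to 1 families. That reference does not remove differences between runs. Selumetinib and Refametinib of this family are in the run with the highest median contrast (35.1). GSK461364 (0.57) and Tofacitinib (0.55), of the same run and outside the family, were also called higher at the Tnf-Ltb element with it. The part of the run in the family difference was not tested. Leaving out the PH797804 30 min library, the runs in turn and the overlap rule for starts were chosen after seeing the data. The causes of the changes between settings were not tested, also where a setting removes the shift between libraries.

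Replicate numbers 1 and 2 are shared by DMSO groups, but over 36 pairs of DMSO groups the deviations of the same number correlated at -0.0873 to 0.0664, so the numbers did not pair the samples. A fit with a replicate block gave 8 calls for LPS, 1 for IL-4, 9 for LPS against IL-4 and 18 steps. With 2 replicates per DMSO group and mostly 1 library per CKI group, small differences are not resolved, and elements near the filter, such as the Aif1-Lst1 gap element, carry the largest errors.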
